A study of Rattus norvegicus with 2 samples.

Results

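The genes described here are induced by interferon: Ifit3, Ifit1bl, Slfn4, Rsad2, Bst2, Gbp5, Isg15, Irf7 and Mx1. They were followed through the cells of the rat zygomatic maxillary suture, the fibrous joint between cheek bone and upper jaw. The set was chosen by name, with earlier results of these data known. It holds 9 genes of the 22154 listed in either library, and all 9 were counted in both. The data are 2 single-cell libraries, 1 a group, from rats aged 4 weeks. In the distraction library a W-shaped spring of 0.4 mm nickel-titanium wire, giving an initial force of 20 g, had pulled the suture apart for 7 days. In the sham library, taken at the same time, holes were drilled and no spring was placed. Both groups had the same anaesthesia, skin incision and partial separation of the chewing muscles, and the sources used here give neither strain nor sex nor the number of animals behind a library. The tissue was crushed into a suspension. With 1 library a group no difference below has a replicate check, so no p-value is given. All intervals are 95% intervals that cover counting error only.

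Interferons are secreted proteins that bind receptors on the cell surface and start JAK-STAT signalling, after which STAT and IRF factors bind short GAAA repeats in the promoters of their target genes. The products of those targets act at separate steps of a virus's life: Irf7 is a transcription factor that amplifies the production of type I interferon, the IFIT proteins bind foreign RNA, Isg15 is a ubiquitin-like protein joined to other proteins, Rsad2 (viperin) makes a chain-terminating nucleotide, Bst2 (tetherin) holds budding particles at the membrane, and Gbp5 and Mx1 are large GTPases. Slfn4 is a Schlafen gene known from mouse myeloid cells.

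Promoter windows show where such repeats lie, and the following are given for 5 members that carry the results below. Windows run from 250 bases before to 50 bases after an annotated start, from RefSeq on the rat build GRCr8, 5′ to 3′ on the strand of the gene, and capitals mark matches on either strand to a 10-base motif, GAAA, any 2 bases, GAAA.
Ifit3, chr1:241527076-241527375, plus strand: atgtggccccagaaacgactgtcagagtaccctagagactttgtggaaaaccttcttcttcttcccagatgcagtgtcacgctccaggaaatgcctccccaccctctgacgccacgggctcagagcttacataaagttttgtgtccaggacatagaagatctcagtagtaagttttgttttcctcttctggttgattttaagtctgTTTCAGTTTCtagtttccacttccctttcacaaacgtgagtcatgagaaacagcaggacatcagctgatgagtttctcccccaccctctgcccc
Irf7, chr1:205799974-205800273, minus strand: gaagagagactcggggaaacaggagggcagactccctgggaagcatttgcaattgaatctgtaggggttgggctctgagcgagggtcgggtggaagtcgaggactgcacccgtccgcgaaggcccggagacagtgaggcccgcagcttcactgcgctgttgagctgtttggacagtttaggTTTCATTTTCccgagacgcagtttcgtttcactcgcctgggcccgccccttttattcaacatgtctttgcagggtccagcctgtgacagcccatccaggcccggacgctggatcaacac
Rsad2, chr6:48788071-48788370, minus strand: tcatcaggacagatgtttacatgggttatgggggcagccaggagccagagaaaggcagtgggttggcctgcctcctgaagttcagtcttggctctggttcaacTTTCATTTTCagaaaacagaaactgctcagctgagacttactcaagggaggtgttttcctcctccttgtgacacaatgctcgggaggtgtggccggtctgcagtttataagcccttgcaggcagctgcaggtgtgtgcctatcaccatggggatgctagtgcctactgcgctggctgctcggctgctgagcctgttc
Bst2, chr16:18254918-18255217, minus strand: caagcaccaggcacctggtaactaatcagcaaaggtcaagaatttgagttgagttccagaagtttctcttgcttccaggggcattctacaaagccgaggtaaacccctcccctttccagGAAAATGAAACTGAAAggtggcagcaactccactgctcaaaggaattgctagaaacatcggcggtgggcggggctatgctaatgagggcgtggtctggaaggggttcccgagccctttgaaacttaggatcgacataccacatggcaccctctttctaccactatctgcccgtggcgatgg
Slfn4, chr10:68491970-68492269, plus strand: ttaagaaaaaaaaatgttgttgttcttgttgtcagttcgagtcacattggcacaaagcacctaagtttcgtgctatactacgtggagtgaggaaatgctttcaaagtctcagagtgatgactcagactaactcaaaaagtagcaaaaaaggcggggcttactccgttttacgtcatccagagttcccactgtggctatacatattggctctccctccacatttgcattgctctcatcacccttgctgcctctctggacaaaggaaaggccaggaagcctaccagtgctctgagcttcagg
The first base of the match lay 44 bases before the start in Ifit3, 69 in Irf7 and 147 in Rsad2, in each case on the reverse strand. Bst2 had a pair of forward matches, at 131 and 125 bases before the start, that overlap. Of the members not printed, Gbp5 had a match 56 bases before its start, 1 of the 2 Ifit1bl windows had a match at 120 bases, and Mx1, like Slfn4, had none in its window. The table held 9 windows of 8 members, none of them of Isg15, and 6 of the 9 windows had a match, against 1312 of 33469 promoters in all (3.92%). A match is a description of the letters, not of binding.

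**Figure D1:**
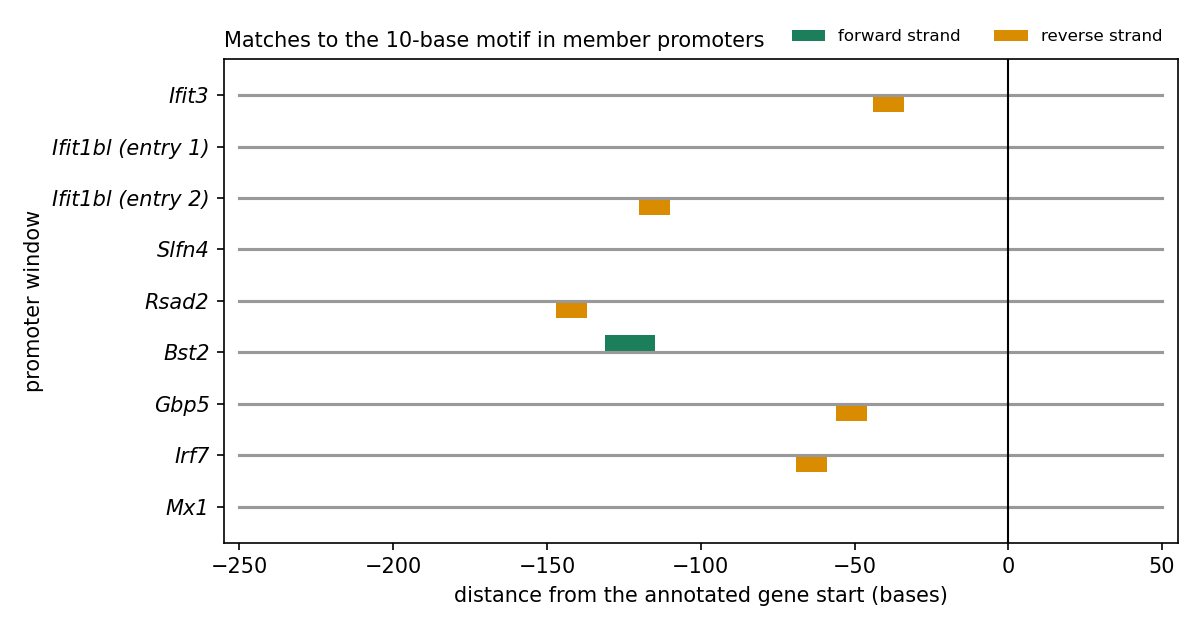
Position of matches to the 10-base motif in the promoter windows of 8 members, by distance in bases from the annotated start (vertical line). Green blocks above a line are forward matches and orange blocks below it reverse matches; the 2 Bst2 matches overlap, and Slfn4, Mx1 and 1 of 2 Ifit1bl windows hold none.

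The cells that passed the filters numbered 4032 in distraction, with 31154353 molecules counted (UMIs) and a median of 4156.5 in a cell. Those of sham numbered 5182, with 29478647 UMIs and a median of 3032.5. The filters removed more cells from distraction, with 4889 deposited, than from sham, with 5351. The lowest deposited cell held 125 UMIs in distraction and 920 in sham. Clusters were built without the 9 members and without other interferon pathway genes, and were named from markers, with no name where another class's genes led. Mature neutrophils were 7.64% of distraction cells and 3.40% of sham cells, and Rag1-positive small B cells, whose 3 clusters carry B markers but no single stage, were 17.2% against 33.6%. The libraries shared 22 cell barcodes, or 0.450% of those deposited for distraction, where the label parts seen allow 884736 barcodes. The overlap expected by chance was not computed. Stromal cells were few, 111 and 76, and macrophages, at 30 and 25 cells, lay under the minimum of 50 cells a library, so their values below were taken up after they had been seen. These 17 classes are the ones compared.

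The members fell into 3 patterns of cell type. Ifit3, Slfn4, Irf7, Isg15 and Ifit1bl were highest in mature neutrophils in both libraries. Rsad2 was highest in late erythroid cells, and Bst2, Gbp5 and Mx1 were low in late neutrophils and late erythroid cells and highest in dendritic cells, macrophages or B cells. Levels are given per 1000000 counts of a cell class in a library (CPM), so a level is a share of the RNA counted, not an amount per cell.

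**Figure D2:**
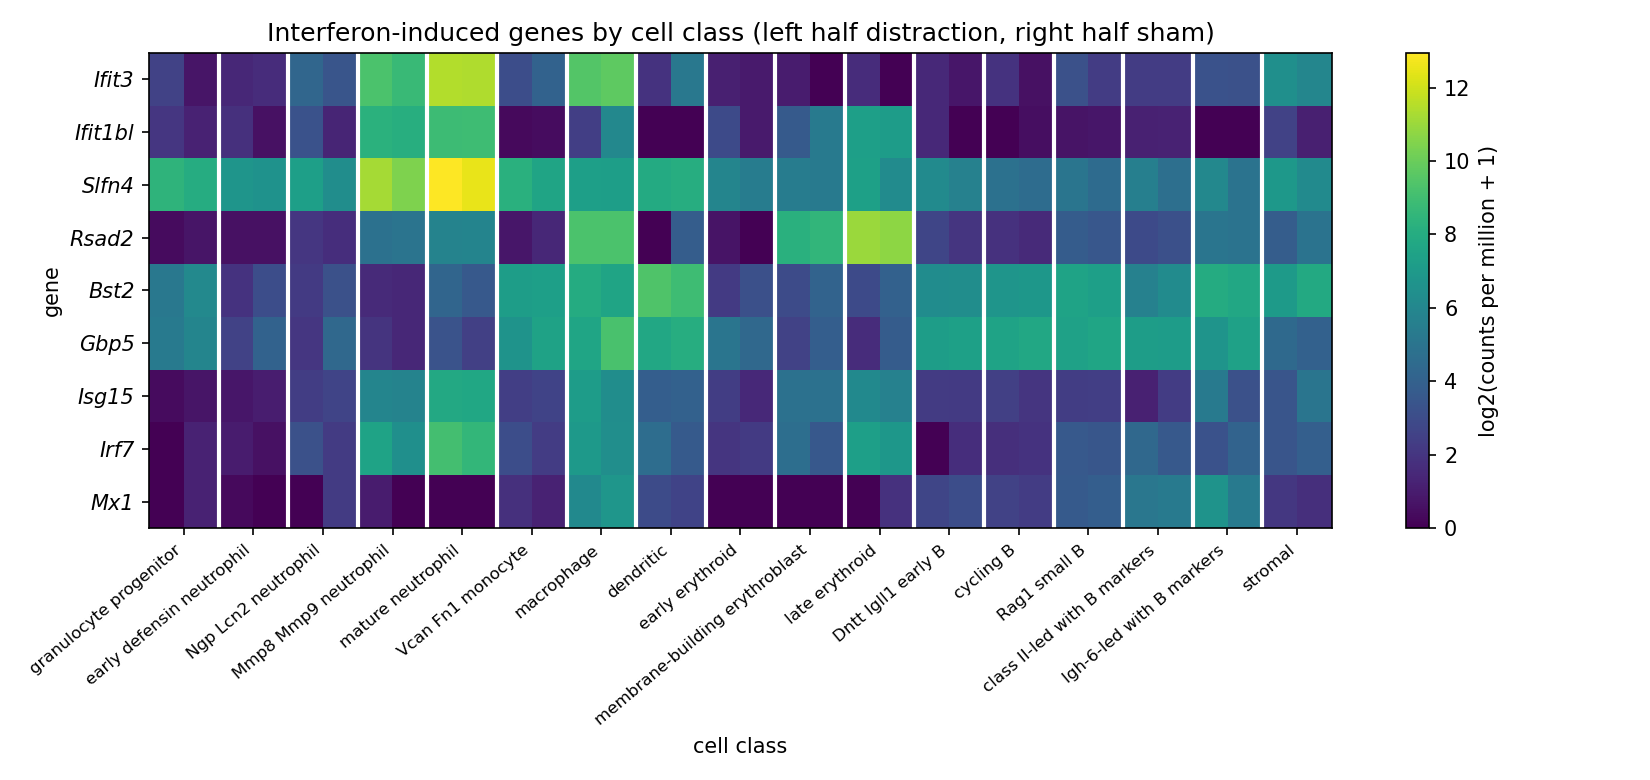
Level of each member, as log2(CPM + 1), in 17 cell classes, with distraction left and sham right within each class. Among the bright fields are Slfn4 (7869 and 5936 CPM) and Ifit3 (2752 and 2668 CPM) in mature neutrophils, Slfn4 in Mmp8 Mmp9 neutrophils (2316 and 1391 CPM) and Rsad2 in late erythroid cells (2017 and 1721 CPM).

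Irf7 was highest in mature neutrophils, at 535 CPM (420 counts, interval 485 to 589) in the distraction library and 378 CPM (169 counts, 323 to 440) in the sham library. It was detected in 54.5% and 43.8% of those cells. In the preceding stage, which carries the gelatinase genes Mmp8 and Mmp9, it stood at 178 CPM in distraction and 84.8 CPM in sham, and in late erythroid cells at 159 and 113 CPM. Macrophages had 125 and 82.9 CPM, and in both libraries the intervals of neighbours among these 3 classes overlapped. Dendritic cells stood far below these classes, at 24.1 and 11.6 CPM, and were not the next in rank in either library. Monocytes had 7.21 and 4.01 CPM. Early neutrophil stages held almost none: 4 counts in distraction and 1 in sham were found in the defensin-bearing stage.

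Irf7 was called higher in distraction in 2 of the 9 classes with enough counts, in which 2.36% and 1.95% of all tested genes were higher. In Mmp8 Mmp9 neutrophils the ratio of distraction to sham was 2.10 (1.53 to 2.94), and in membrane-building erythroblasts, with 26 and 8 counts, 2.29 (1.01 to 5.84). The erythroblast call was kept in 4 of 11 alternative settings. In mature neutrophils the ratio was 1.41 (1.18 to 1.70), under the fold of 1.5 that a call required. With both late stages taken as 1 class the level was 332 CPM in distraction and 211 CPM in sham, a ratio of 1.57 (1.34 to 1.84). The share of mature cells among these late neutrophils was 51.1% in distraction and 51.5% in sham.

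Ifit3 was a gene of the late neutrophil stages in both libraries. In the distraction library it stood at 4.94, 1.71, 18.4, 609 and 2752 CPM in progenitors, defensin, Ngp Lcn2, Mmp8 Mmp9 and mature cells. In the sham library the same stages had 0.689, 2.08, 9.83, 443 and 2668 CPM. It was found in 84.4% and 83.5% of mature neutrophils but in 1.44% and 0.631% of Rag1 small B cells, whose median depths (2305.5 and 2170 UMIs) were close to those of mature neutrophils (2390.5 and 2481.5). Mature neutrophils held 62.8% of all Ifit3 counts in distraction and 64.0% in sham.

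Within mature neutrophils the Ifit3 ratio was 1.03 (0.961 to 1.11), and in Mmp8 Mmp9 neutrophils 1.38 (1.19 to 1.60), neither reaching 1.5. Macrophages came next to mature neutrophils, at 701 CPM in distraction and 859 CPM in sham. Erythroid cells had nearly none, with 1 count in distraction and 0 in sham among late erythroid cells, where 3 counts would have been 6.51 and 7.67 CPM. In Vcan Fn1 monocytes Ifit3 was called lower, at 7.46 CPM (30 counts) in distraction and 16.0 CPM (48 counts) in sham, but 53.3% and 56.2% of those counts lay in 1 cell. Without the highest cell of each library the log2 ratio was -1.01 and no call was made, and the direction turned with a minimum of 1500 UMIs, at resolution 0.5 and with libraries clustered apart (log2 ratios 0.69, 0.40 and 0.85).

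Ifit1bl, a second IFIT gene, had a flatter course: 312 and 474 CPM in the last 2 neutrophil stages of distraction, and 273 and 486 CPM in sham. Late erythroid cells had 156 CPM in distraction and 141 CPM in sham, a level that Ifit3 did not approach there. Membrane-building erythroblasts had 11.5 CPM (12 counts) in distraction and 39.6 CPM (29 counts) in sham, called lower at 0.291 (0.135 to 0.588), a call kept in 6 of 11 alternative settings. Monocytes, at 1 count in each library, and dendritic cells, at 0 in both, showed hardly any. Ifit1bl and Ifit1 are paralogs, and since the rule by which shared reads were divided is unknown here, both values are uncertain.

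Slfn4 was the most abundant member, at 7869 CPM (6176 counts) in distraction and 5936 CPM (2652 counts) in sham mature neutrophils. The median mature neutrophil, thinned to 2000 UMIs, held 13 Slfn4 UMIs in distraction and 9 in sham. Levels dipped between progenitors and late stages: progenitors had 342 and 253 CPM, the defensin stage 108 and 94.5 CPM, the Ngp Lcn2 stage 157 and 81.7 CPM, and the Mmp8 Mmp9 stage 2316 and 1391 CPM. Monocytes stood at 301 and 188 CPM and dendritic cells at 238 and 268 CPM. The lowest levels were in cycling B cells, at 27.1 and 22.6 CPM, and Rag1 small B cells, at 31.4 and 22.0 CPM.

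The difference in Slfn4 between libraries was moderate and ran the same way in most classes. Its level was higher in distraction than in sham in 16 of 17 classes, dendritic cells being the exception. The call was passed by 6 of the 17: Ngp Lcn2 and Mmp8 Mmp9 neutrophils, monocytes, and late erythroid, class II-led and stromal cells. Of all genes tested in these, 1.86%, 2.36%, 2.71%, 2.84%, 3.48% and 14% were higher, in that order. The call held in 12 of 12 alternative settings in monocytes, 11 of 12 in Mmp8 Mmp9 neutrophils and 5 of 10 in class II-led cells. In the others of the 6 the direction turned in at least 1 setting. Mmp8 Mmp9 neutrophils had a ratio of 1.66 (1.54 to 1.80), monocytes 1.60 (1.45 to 1.77) and Ngp Lcn2 neutrophils 1.93 (1.54 to 2.42), the last turning to a log2 ratio of -0.23 with every deposited cell kept. In monocytes markers of mature neutrophils summed to 10841 CPM in distraction and 8917 CPM in sham, with 0 of 7 tested called. Those of the Ngp Lcn2 stage summed to 506 and 670 CPM, with 1 of 4 tested lower. The part of either list in the Slfn4 ratio was not tested. In mature neutrophils the Slfn4 ratio was 1.33 (1.27 to 1.39) and in progenitors 1.35 (1.20 to 1.53), both intervals above 1 with the ratio under 1.5. In late erythroid cells, at 165 and 74.2 CPM, 65.8% of the distraction counts lay in 1 cell, and with cells of mixed markers left out the direction turned, to a log2 ratio of -0.38. Mature neutrophil markers there summed to 341 and 240 CPM, with 2 of 3 tested higher and 1 of 9 at 0 in both. Ngp Lcn2 markers went the other way, at 195 and 708 CPM, with 2 of 3 tested lower. The part of either list was not tested.

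Slfn4 was also the member seen at low levels in nearly every class, for which its counts per Ifit3 count are a measure. Mature neutrophils had 2.86 Slfn4 counts per Ifit3 count in distraction and 2.22 in sham. Monocytes had 40.4 and 11.7, and progenitors 69.4 and 367 with wide intervals (42.5 to 122, and 65.5 to 14535). Macrophages had 0.221 and 0.175. Rag1 small B cells had 3.86 and 5.56 on 14 and 16 Ifit3 counts. The intervals of progenitors and monocytes lay above those of mature neutrophils in both libraries. That of Rag1 small B cells overlapped the mature neutrophils' in distraction (2.11 to 7.52) and lay above it in sham (3.24 to 10.2).

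**Figure D3:**
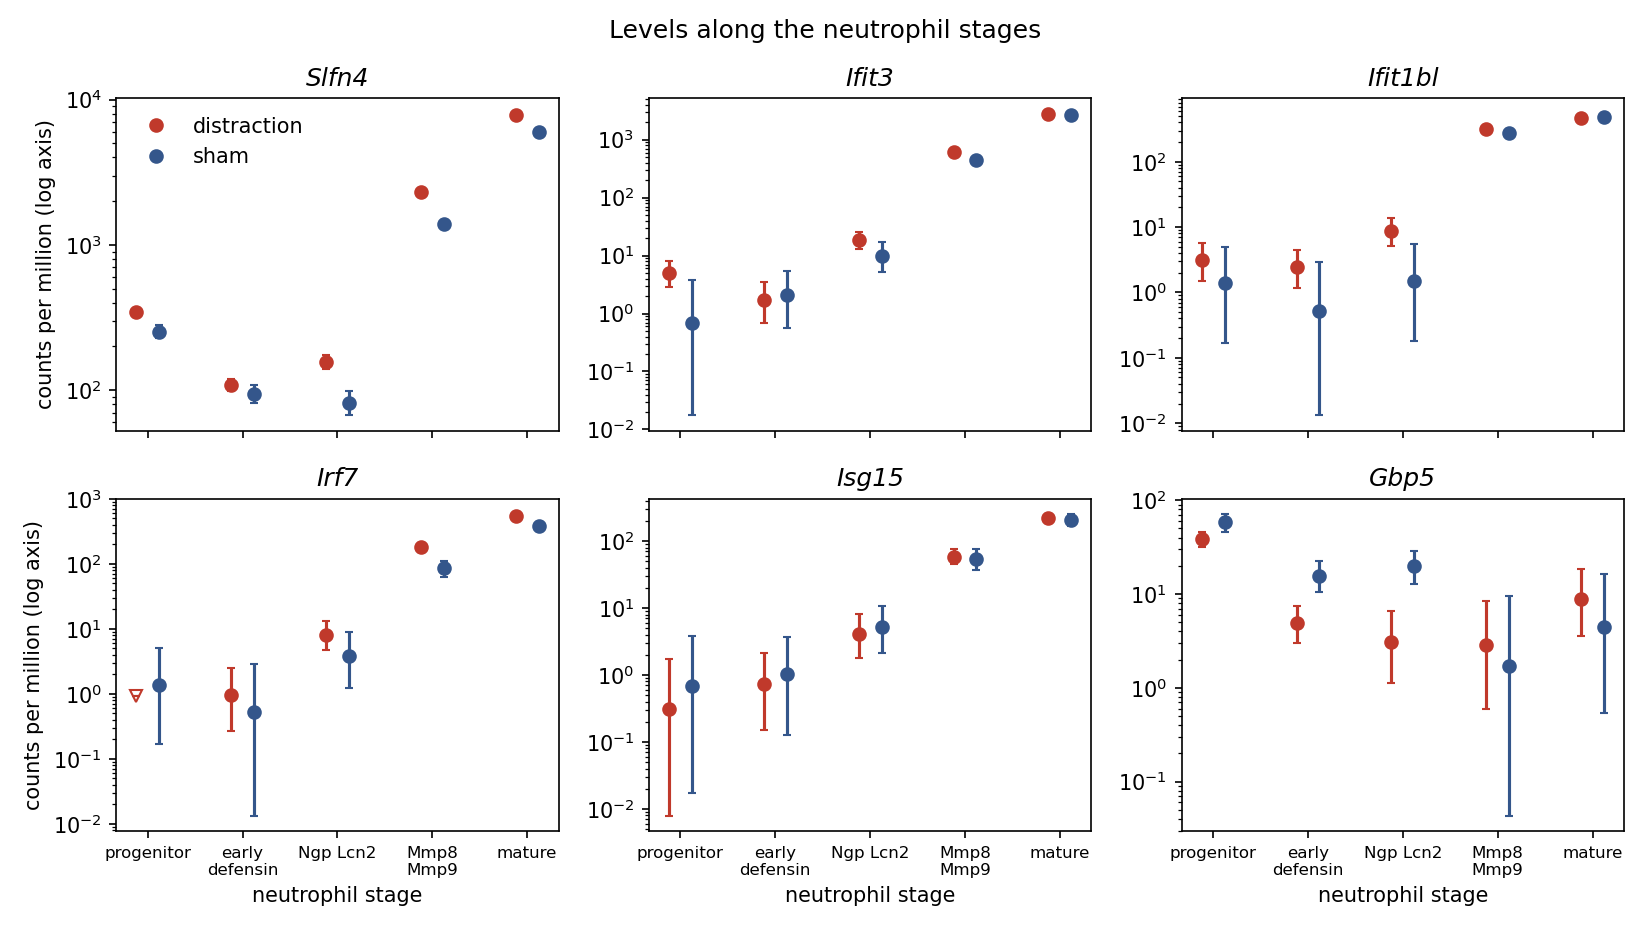
CPM of 6 members in 5 neutrophil stages on log axes, distraction in red left of sham in blue, with 95% counting intervals; an open triangle marks 0 counts, drawn at 3 counts. Slfn4, Ifit3, Ifit1bl, Irf7 and Isg15 are highest in the last 2 stages of both libraries, while Gbp5 is highest in progenitors.

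Isg15 was also highest in mature neutrophils, which had 220 CPM (173 counts) in distraction and 206 CPM (92 counts) in sham, a ratio of 1.07 (0.826 to 1.39). The share of mature neutrophils with an Isg15 UMI was 21.8% (67 of 308 cells) in distraction and 12.5% (22 of 176 cells) in sham, while 27.2% of the sham counts lay in 1 cell. Macrophages stood at 142 and 79.1 CPM, late erythroid cells at 69.5 and 51.1 CPM and the Mmp8 Mmp9 stage at 58.5 and 54.3 CPM. The first 3 neutrophil stages, monocytes, early erythroid cells and all B classes but the Igh-6-led one had at most 5.29 CPM in either library.

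Rsad2 was a gene of late red-cell precursors in these libraries. Late erythroid cells had 2017 CPM (929 counts, 1890 to 2151) in distraction and 1721 CPM (673 counts, 1593 to 1856) in sham, with a UMI in 93.0% and 91.5% of cells. Membrane-building erythroblasts stood at 301 and 368 CPM and early erythroid cells at 0.599 and 0 CPM, on 1 and 0 counts. Late erythroid cells held 54.9% of all Rsad2 counts in distraction and 52.5% in sham. The ratio was 1.17 (1.06 to 1.30) in late erythroid cells and 0.818 (0.693 to 0.967) in the membrane-building class, neither of them called.

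Thinned to 2000 UMIs, the median late erythroid cell held 4 Rsad2 UMIs in distraction and 3 in sham, and the single richest cell held 4.31% and 5.05% of the unthinned counts. In membrane-building erythroblasts the thinned median was 0 in both, and the highest cell held 9 Rsad2 UMIs in distraction and 6 in sham. In macrophages, at 626 and 610 CPM, 1 cell held 163 of 291 counts in distraction and 81 of 162 in sham. Mature neutrophils, with 53.5 and 56.0 CPM, had a UMI in 8.12% and 7.39% of cells. Cmpk2, a mitochondrial nucleotide kinase and genomic neighbour of Rsad2 on chromosome 6, had 243 and 238 CPM in late erythroid cells, 109 and 87.5 CPM in the membrane-building class and 12.7 and 13.4 CPM in mature neutrophils.

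Among the 17 classes Bst2, the tetherin gene, was highest in dendritic cells, at 655 CPM (490 counts) in distraction and 480 CPM (372 counts) in sham, a ratio of 1.36 (1.19 to 1.56). The endothelial part of the stromal class, described below, stood above that, at 690 CPM in 26 distraction cells and 1147 CPM in 16 sham cells. The Igh-6-led cells with B markers, whose leading genes are also plasma cell genes, had 250 and 218 CPM, macrophages 250 and 185 CPM, and Rag1 small B cells 179 and 155 CPM. Monocytes stood at 144 and 160 CPM, with 68.0% and 68.3% of cells holding a UMI. Neutrophils after the progenitor stage had at most 17.8 CPM in distraction and 11.2 CPM in sham, and erythroid cells at most 6.73 and 16.4 CPM. It was called lower in granulocyte progenitors, at 35.5 and 66.2 CPM (ratio 0.536, 0.405 to 0.710, kept in 9 of 12 alternative settings), and in stromal cells.

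Gbp5 was found in B cells, dendritic cells, monocytes and macrophages. Cycling B cells had 180 CPM (777 counts) in distraction and 213 CPM (1633 counts) in sham, Rag1 small B cells 171 and 193 CPM, and dendritic cells 216 and 263 CPM. The counts of cycling B cells made up 30.5% of all Gbp5 counts in distraction and 39.0% in sham. Mature neutrophils had 8.92 and 4.48 CPM, on 7 and 2 counts.

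Gbp5 was called lower in distraction in 6 of the 13 classes with enough counts and higher in 0, and its level was below that of sham in 12 of 17. In Vcan Fn1 monocytes it stood at 98.9 CPM (398 counts) and 173 CPM (517 counts), a ratio of 0.573 (0.502 to 0.654) that was called under all 12 alternative settings. In progenitors the ratio was 0.666 (0.501 to 0.889), in the defensin stage 0.313 (0.169 to 0.570) and in the Ngp Lcn2 stage 0.156 (0.0524 to 0.387), the last on 6 and 26 counts. These calls were kept in 7 of 12, 4 of 6 and 8 of 11 alternative settings. In each of these stages the call was not made without cells of mixed markers or after thinning. The called ratio in Igh-6-led cells was 0.629 (0.405 to 0.965), kept in 4 of 7. Macrophages had 196 and 588 CPM (0.333, 0.254 to 0.434), with 42.9% and 50.6% of counts in 1 cell. In the B cell classes with more cells it was not called: 0.845 (0.775 to 0.921) in cycling and 0.885 (0.771 to 1.01) in Rag1 small B cells.

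Mx1 was the scarcest member, with 175 counts in the whole distraction library and 218 in sham. Not 1 count was found in 308 distraction or 176 sham mature neutrophils, which allows up to 3.82 and 6.72 CPM, or 0.974% and 1.70% of cells with a UMI. It lay in Igh-6-led cells, at 98.6 CPM (34 counts) in distraction and 38.1 CPM (14 counts) in sham, in class II-led cells with B markers on 26 and 60 counts, and in macrophages at 68.9 and 109 CPM. The Igh-6-led ratio of 2.59 (1.35 to 5.22) was called, but 1 cell held 44.1% of the distraction counts and without the highest cells the log2 ratio was 0.88 and no call was made. Mx1 has a paralog, Mx2, and how reads shared by both were counted is unknown here.

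Counts of calls are to be read beside those over all genes tested in a class. In mature neutrophils 0 of the 6 members with 30 counts or more were called higher, against 5.09% of 3006 genes, and 0 were called lower, against 6.95%. In Mmp8 Mmp9 neutrophils 2 of 6, Slfn4 and Irf7, were higher, against 2.36% of 3386 genes, and 0 lower, against 8.86%. In Ngp Lcn2 neutrophils 1 of 3 was higher (background 1.86%) and 1 lower (9.54%). With the last 2 stages joined, Irf7 alone of 6 was higher, against 2.09% of 4346 genes, and 0 were lower, against 9.55%. The median log2 ratio of the tested members was 0.071 in mature and 0.33 in Mmp8 Mmp9 neutrophils, against -0.0042 and -0.12 over all genes. Of the markers of the mature stage itself, 0 of 7 tested markers were called in mature neutrophils, where their summed level was 40506 CPM in distraction and 38440 CPM in sham.

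In the other main classes the members' counts were also small. In Vcan Fn1 monocytes 1 of 6 was higher (Slfn4, background 2.71%) and 2 of 6 were lower (Ifit3 and Gbp5, background 3.01%). In late erythroid cells 1 of 5 was higher (Slfn4, background 2.84%) and 0 lower (background 13.1%). In Rag1 small B cells 0 of 7 were called in either direction, with backgrounds of 1.29% and 3.7%, and in cycling B cells 0 of 6, with 1.7% and 2.43%. In dendritic cells 0 of 3 were called, with backgrounds of 4.09% higher and 5.99% lower. Early erythroid cells had 0 of 2 called, beside 1.91% and 4.47%, and Dntt Igll1 early B cells 0 of 3, beside 2.55% and 5.38%. Class II-led cells had 1 of 5 higher, Slfn4 at 47.2 and 25.3 CPM (1.86, 1.15 to 3.02), against 3.48%, and 0 lower, against 4.04%; the Slfn4 call was kept in 5 of 10 alternative settings. The backgrounds were 2.29% higher and 7.91% lower in progenitors, 2.73% and 7.51% in the defensin stage, 1.95% and 9.67% in membrane-building erythroblasts, 3.86% and 8.03% in Igh-6-led cells and 8.31% and 9.65% in macrophages.

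**Figure D4:**
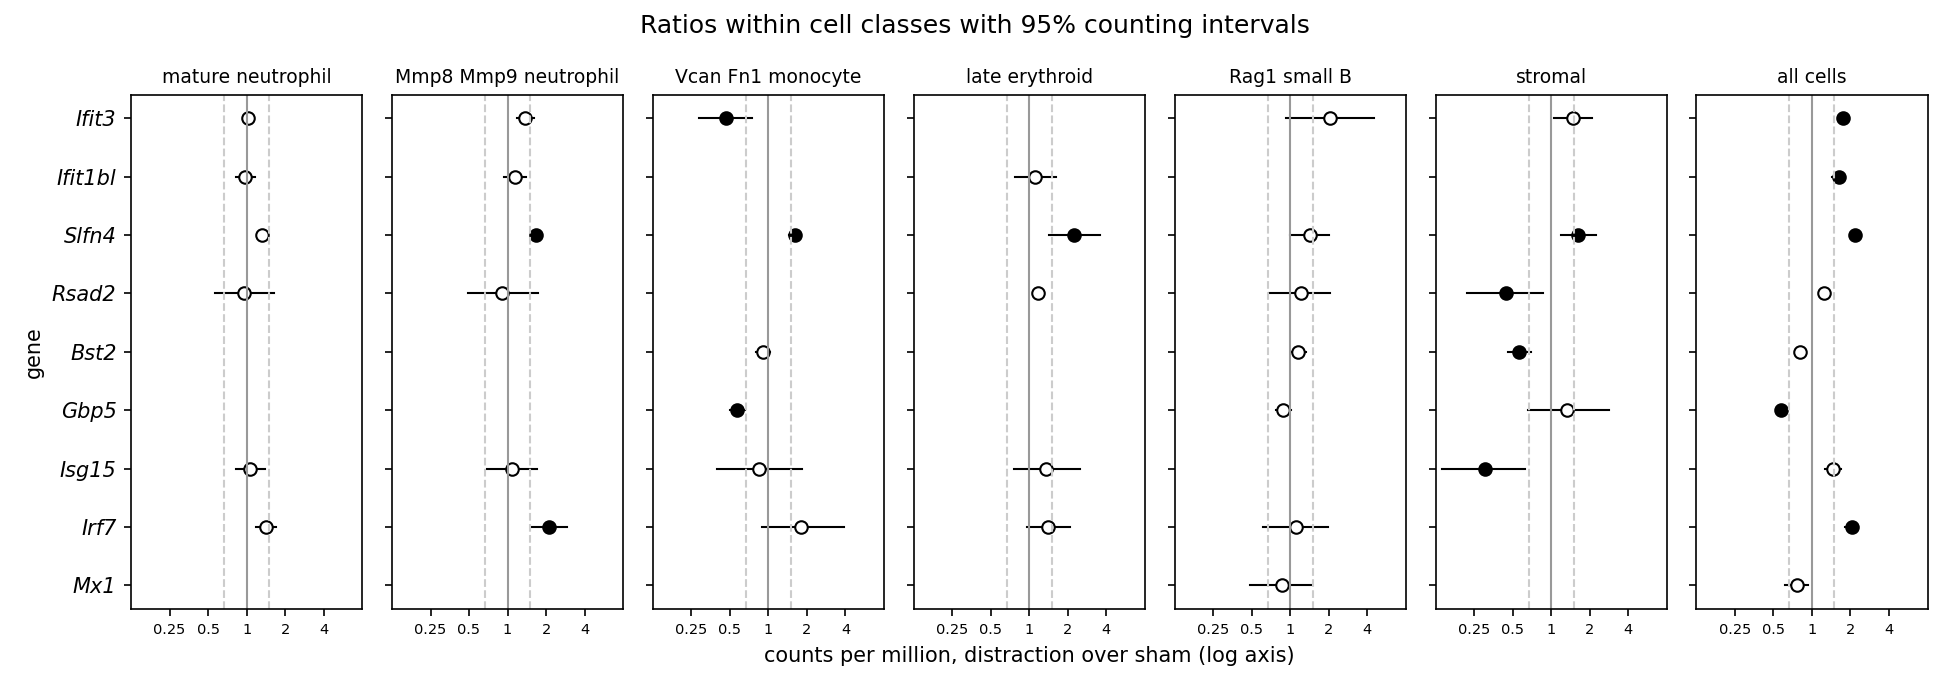
Ratio of CPM in distraction over sham with 95% counting intervals in 6 cell classes and over all cells, on a log axis; filled points are calls, dashed lines mark 1.5-fold, and members under 30 counts are not drawn. No mature neutrophil point is filled, Slfn4 is filled right of 1 in 4 of the 6 classes, and Gbp5 is filled left of 1 in monocytes and over all cells.

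In stromal cells, the bone-forming, fibroblast and vessel cells of the suture, 3 members were lower and 1 higher. Bst2 was at 133 CPM (165 counts) in distraction and 235 CPM (202 counts) in sham, a ratio of 0.564 (0.457 to 0.697) that was called under all 12 alternative settings. Isg15, at 9.66 and 31.4 CPM (12 and 27 counts), and Rsad2, at 12.9 and 29.1 CPM (16 and 25 counts), were also called lower. Each of these calls was kept in 9 of 12 settings and was not made without cells of mixed markers, after thinning or without the highest cell. Of all genes tested there, 5924, 14% were higher and 9.15% lower; 6 members were among them. The higher one was Slfn4, at 117 CPM and 72.2 CPM (1.63, 1.20 to 2.23). Markers of mature neutrophils summed to 847 CPM in distraction and 44.3 CPM in sham stromal cells, 4 of 4 tested ones being higher and 1 of 9 at 0 in both. Without cells of mixed markers, 25 and 23 of them, the Slfn4 log2 ratio was -0.98, a call in the lower direction. Whether neutrophil RNA had a part in the other stromal values was not tested.

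The endothelial part, 26 cells in distraction and 16 in sham, held 142 of the 165 and 140 of the 202 stromal Bst2 counts. There Bst2 stood at 690 CPM (581 to 813) in distraction and 1147 CPM (965 to 1354) in sham, Isg15 at 48.6 and 180 CPM, Rsad2 at 77.7 and 188 CPM and Ifit3 at 321 and 197 CPM. Fibroblast parts had Bst2 at most at 41.0 CPM in distraction and 72.5 CPM in sham, and the mural part had 69.8 and 358 CPM on 3 and 28 counts. In a fibroblast part made up of 10 distraction cells alone, Slfn4 was at 476 CPM and Ifit3 at 184 CPM. That part held 93 of the 146 Slfn4 counts and 36 of the 109 Ifit3 counts of distraction stromal cells. With no sham cells in it no ratio could be formed, and its weight in the stromal Slfn4 call was not tested.

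Many mature neutrophils held several members. The share of such cells rises with the level of each member, and the share expected from separate detection was not computed. With cells thinned to 2000 UMIs, 59.2% of 240 distraction and 52.1% of 140 sham mature neutrophils held 3 or more members (52.7 to 65.4, and 43.5 to 60.7), and the median was 3 in both. In the Mmp8 Mmp9 stage the shares were 27.2% (22.1 to 32.8) and 15.9% (10.6 to 22.4), and in the defensin stage 0 of 268 and 0 of 149 cells. Mature neutrophils with an Ifit3 UMI held Irf7 in 56.1% of cases in distraction and 46.8% in sham, whereas those without Ifit3 held it in 27.5% and 17.2%. Cells with Isg15 held Irf7 in 78.0% and 81.2% of cases, and cells without it in 42.6% and 35.5%. The cells with Isg15 were the smaller group in each library, and the 81.2% of sham rests on few cells. Ifit1bl had no such relation to Ifit3 in distraction, with 32.8% beside 31.4%, while sham cells had 36.9% and 20.7%; the cells without Ifit3 numbered 51 and 29.

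The median late erythroid cell held 1 member. At least 2 members were found in 39.8% of 113 distraction and 38.9% of 95 sham cells, and 3 or more in 10.6% and 11.6%. Among cells with Rsad2, Irf7 was present in 20.2% in distraction and 22.9% in sham, and Ifit1bl in 16.2% and 16.9%. Rag1 small B cells held no member in 53.3% of 469 distraction and 53.6% of 1055 sham cells.

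**Figure D5:**
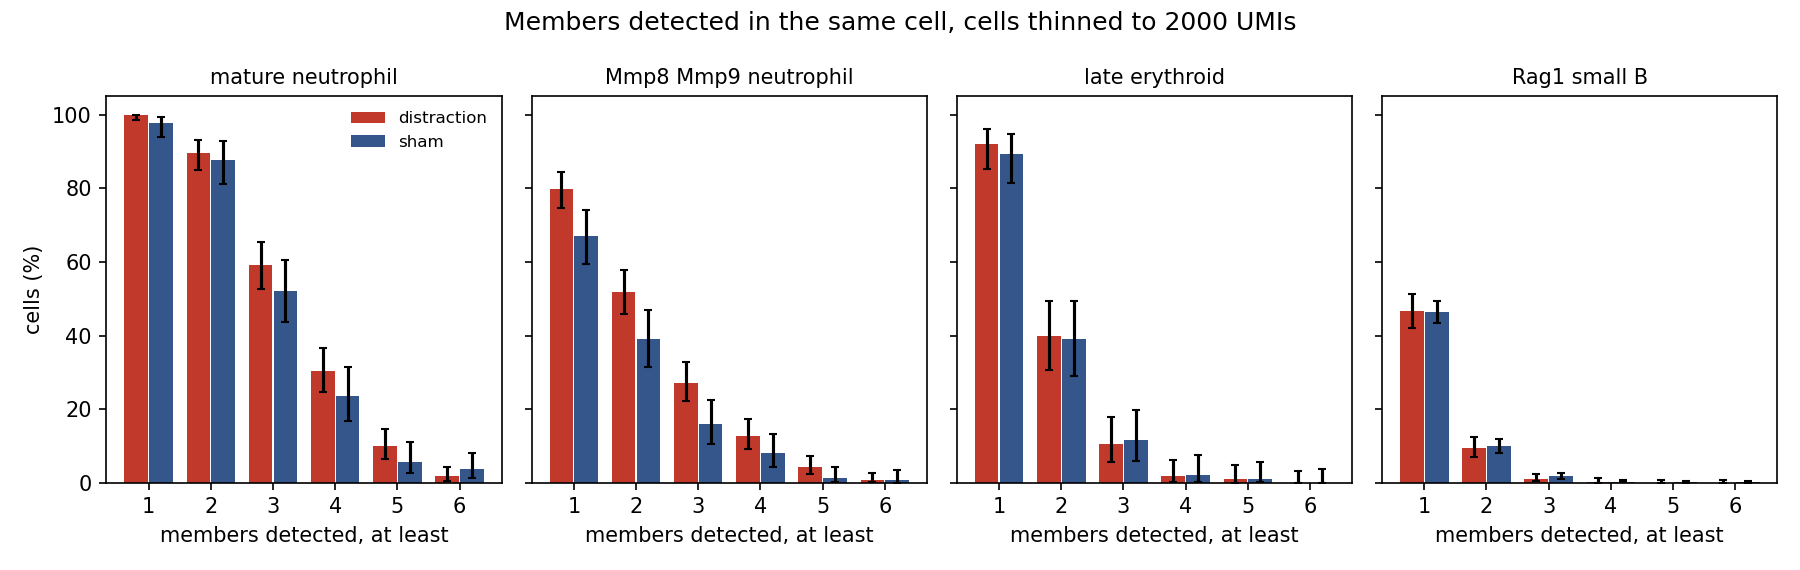
Share of cells, in percent, with at least the given number of members among cells thinned to 2000 UMIs, with exact 95% binomial intervals, distraction in red left of sham in blue. Mature neutrophils hold 3 or more members in 59.2% of distraction and 52.1% of sham cells, against 10.6% and 11.6% in late erythroid cells and 1.07% and 1.71% in Rag1 small B cells.

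Summed over all cells, 4 of the 9 members were higher, against 7.22% of 12935 genes, and 1 was lower, against 13.1%. Slfn4 stood at 440 CPM in distraction and 204 CPM in sham (ratio 2.15, 2.09 to 2.22), Irf7 at 29.9 and 14.6 CPM (2.04, 1.82 to 2.29), Ifit3 at 110 and 63.2 CPM (1.75, 1.65 to 1.85), and Ifit1bl at 27.1 and 16.8 CPM (1.62, 1.44 to 1.81). Gbp5 was at 81.7 and 142 CPM (0.575, 0.547 to 0.604). These sums mix cell make-up with level. With each class held at its sham level, the change in make-up alone gave a ratio of 1.61 for Ifit3 and 1.57 for Ifit1bl, and at the sham make-up the levels alone gave 1.07 and 1.03. For Slfn4 the same values were 1.55 and 1.39, for Irf7 1.35 and 1.46, and for Gbp5 0.769 and 0.806.

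The wider interferon pathway was read from lists of 137 genes, of which 115 were in the tables. Of the ligands, Ifnb1 had 12 counts in 9 distraction cells and 4 counts in 1 sham cell, and Ifng, Ifnk and Ifnl3 had at most 3 counts in a library. All 5 tested receptor genes were uncalled in mature neutrophils, among them Ifnar1 at 298 and 275 CPM and Ifngr1 at 1054 and 1222 CPM. Of 8 tested signalling genes 0 were called there. Taking all lists, 7 of 52 tested genes were higher in mature neutrophils and 1 was lower, beside 5.09% and 6.95% of 3006 genes. Their median log2 ratio was 0.061, against -0.0042 over all genes. The higher ones included Ifi27l2b at 213 and 85.1 CPM, its relative Ifi27 at 203 and 89.5 CPM, the exonuclease gene Isg20 at 103 and 51.5 CPM, Oas1a, which senses double-stranded RNA, at 135 and 80.6 CPM, Slfn13 at 54.8 and 24.6 CPM and the GTPase gene Gbp2 at 54.8 and 20.1 CPM. How any reads shared by Ifi27l2b and Ifi27 were counted is unknown here, so these may not be separate changes.

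In Mmp8 Mmp9 neutrophils 4 of 49 tested pathway genes were higher and 3 lower, beside 2.36% and 8.86% of all genes. Their median log2 ratio was -0.019, against -0.12 over all genes, and of 8 signalling genes 0 were higher and 2 lower. In progenitors 2 of 63 tested pathway genes were higher and 10 lower, beside 2.29% and 7.91% of all genes. Membrane-building erythroblasts had 1 of 33 higher and 7 lower, beside 1.95% and 9.67%, and Igh-6-led cells 1 of 37 and 7, beside 3.86% and 8.03%. Dendritic cells had 6 of 51 higher and 6 lower, beside 4.09% and 5.99%, Ngp Lcn2 neutrophils 5 of 50 and 5, beside 1.86% and 9.54%, and the defensin stage 0 of 54 and 6, beside 2.73% and 7.51%. Monocytes had 1 of 67 higher and 1 lower, beside 2.71% and 3.01%, and Rag1 small B cells 2 of 76 and 5, beside 1.29% and 3.7%. Late erythroid cells had 0 of 16 higher and 1 lower, beside 2.84% and 13.1%. That gene was Eif2ak2, the kinase PKR, with 8 counts in distraction and 24 in sham. In stromal cells 8 of 57 were higher and 4 lower, beside 14% and 9.15% of all genes, and their median log2 ratio was 0.21, against 0.14 over all genes. There the chemokine gene Cxcl10 stood at 226 and 122 CPM and Jak2 at 130 and 73.4 CPM, both higher, and Socs1, which restrains JAK signalling, at 37.8 and 92.0 CPM, lower.

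Genes whose profile was most like that of the members were ranked over 37 profiles, each a class in a library with at least 20 cells, as a description without a test; the profiles share their libraries and many share a lineage. Genes near to the mean member profile were Trim26 (Pearson r 0.859), Oasl (0.817), Cd274 (0.794), AC114233.2 (0.779), Ccl6 (0.778), Tmem127 (0.745) and Cdc42ep2 (0.740). Nearest to single members were Ifit1 for Ifit1bl (0.919), AC114233.2 for Ifit3 (0.919), Tmem50b for Bst2 (0.918), Jup for Gbp5 (0.864), Gpcpd1 for Rsad2 (0.848) and Cd83 for Mx1 (0.845). Isg15 and Irf7 were each nearest to the other (0.858). Among members, Bst2 and Gbp5 also ran together (0.840), and Ifit1bl and Gbp5 ran opposite (-0.59).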

How the data were processed

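The 2 single-cell libraries, 1 of the distracted and 1 of the sham-operated suture, were analysed. Each deposited table gives counts of UMIs for every gene in every cell, whole numbers that the authors had not normalized. Per the file headers they came from version 1.5.1 of the BD WTA Rhapsody Analysis Pipeline. Seurat 3.6 and Rnor_6.0 appear, with no role given, in the submitters' processing notes. Which annotation, strand rule and cell-calling rule were used is not stated in these sources, so reads of overlapping or antisense genes cannot be told apart. A gene listed in 1 table was taken as 0 in the other. No column of values was left unused (0 columns).

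Cells with 500 UMIs, 200 genes and under 25% mitochondrial counts were kept. Scrublet (scanpy 1.11.5) at an expected 5% marked 0.0651% of cells as doublets, so it had not worked and doublets remain. Counts were scaled to 10000 a cell and logged; 2000 variable genes without interferon genes, 30 components, 15 neighbours and Leiden clustering (resolution 1, seed 1, leidenalg 0.10.2) gave 27 clusters, of which 4 stayed unnamed. A name needed 3 markers, each in 10% of cells at 2 times the median cluster's level, and a score of 0.25.

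Levels are summed counts per 1000000 with exact Poisson intervals. Ratios carry exact conditional binomial intervals, and shares exact Clopper-Pearson ones, at 95%. A gene was called at 1.5-fold with an interval on one side of 1 and 30 counts over both libraries; 0 counts are bounded by a floor of 3. The ratio, interval and call were tested on simulated Poisson counts with known changes. That simulation had no spread between cells or between libraries beyond counting error, so it cannot show how calls behave under such spread. Members, gene lists and tests were chosen with earlier results of these data known. All 9 members were named in every class of 50 cells a library and in stromal cells. Of a pathway list, a class could contribute up to 4 names, those of largest ratio among genes reaching 50 CPM; Cmpk2, Ifnb1, Ifng, Ifnk, Ifnl3 and the macrophage values were taken up after their values had been seen. Like-pattern genes were the 8 best for the mean profile and the 2 best for each member, of which the nearest is given; some of these are not reported here. Alternatives covered the cell filter, doublets, resolution, clustering by library, thinning, scaling and the highest cell.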

Additional observations from a re-analysis of the deposited data

Results flagged for a closer look

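Isg15 moved in opposite directions in a pair of classes. Its CPM ratio of distraction over sham was 0.307 (0.142 to 0.627) in stromal cells, on 12 and 27 counts, and 1.80 (1.08 to 3.09) in macrophages, on 66 and 21 counts. With 1 library a group the difference between the classes was not tested. The stromal call was not made without cells of mixed markers, after thinning or without the highest cell. In macrophages 1 cell held 39.4% of the distraction counts and 57.1% of the sham counts.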

How the results depend on the processing

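No paired analysis was possible because each group has 1 library and the labels carry no replicate numbers. Under 12 settings of filtering, clustering and scaling and a few of thresholds and thinning, 1103 values were compared; 926 stayed within their counting interval or within 1.5 times of a count. The 5 calls over all cells were each made in the 8 settings that apply, with 4 to 6 members higher and 1 lower. The mean over cells has no interval, so its calls rest on the fold alone. Calls within classes depended on where clusters ended, so counts of members called are given next; the cause was not tested. At resolution 0.5 the last 2 neutrophil stages merged under the Mmp8 Mmp9 name, and 5 of 18 pairs of member and library had the reported highest class; no mature class was left to give a value. Mature neutrophils had 3 members higher with each library clustered on its own, and 1 with the stage joined to Mmp8 Mmp9 cells, a setting chosen after seeing the data. Mmp8 Mmp9 neutrophils had 1 higher at resolution 0.5, 5 with interferon genes kept among the variable genes, and 6 higher and 1 lower with libraries clustered apart. Ngp Lcn2 neutrophils had 0 higher with every cell kept, with 1500 UMIs, at resolution 2 and with interferon genes kept, 2 higher by the mean over cells and without the highest cell, and 0 lower without mixed cells, after thinning and without the highest cell; no sham cluster took that name when libraries were clustered apart. Monocytes had 3 higher and 1 lower at 1500 UMIs, 2 and 1 at resolution 0.5, 4 and 1 with libraries apart, and 1 lower with interferon genes kept, after thinning and without the highest cell. Late erythroid cells had 0 higher without mixed cells and without the highest cell, 2 with libraries apart and without haemoglobin and mitochondrial genes, and 3 by the mean over cells. Rag1 small B cells had 3 higher with every cell, 2 at 1500 UMIs, 1 with doublets kept, at resolution 2, with interferon genes kept and by the mean over cells, and 4 with libraries apart. Stromal cells had 2 higher with every cell and without the highest cell, 0 without mixed cells and after thinning, and 1 lower after thinning and without the highest cell.

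Single ratios turned in direction for Slfn4 in Ngp Lcn2 neutrophils (log2 -0.23 with every cell, -0.0942 with interferon genes kept), for Ifit3 in monocytes (0.69 at 1500 UMIs, 0.40 at resolution 0.5, 0.85 with libraries apart), for Slfn4 in late erythroid cells (-0.38 without mixed cells) and for Slfn4 in stromal cells (-0.98 without mixed cells, -0.0571 by the mean over cells). Slfn4 and Gbp5 in monocytes, Bst2 in stromal cells and Irf7 in Mmp8 Mmp9 neutrophils were called under all 12 settings. These settings are not independent, since some rescale the same cells. With libraries clustered apart the sham Mmp8 Mmp9 class had 332 cells, against 166 in the main setting, so its make-up differed there. Thinned to 4000 UMIs, 66.7% of sham mature neutrophils held 3 or more members. Pathway genes in mature neutrophils were 4 higher and 0 lower at 100 counts. In stromal cells they were 2 higher and 2 lower at 100 counts, and 4 higher and 1 lower at 2-fold, and in late erythroid cells 0 were lower at 100 counts. Ifit1bl and Mx1 reached 30 counts over both libraries in the fewest classes, 4 and 5 of 17, against 7 for Ifit3 and Rsad2 and 8 for Isg15.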

Other observations

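A small monocyte-like cluster of 22 distraction and 6 sham cells, below the minimum for a comparison and taken up after its values were seen, carried most members. Slfn4 stood there at 6513 CPM (465 counts) in distraction and 4908 CPM (67 counts) in sham, and Ifit3 at 1079 CPM (77 counts) and 73.2 CPM (1 count). Bst2 had 616 and 952 CPM, on 44 and 13 counts. Markers of mature neutrophils summed there to 20604 CPM in distraction and 11866 CPM in sham, with 1 of 3 tested higher, 1 lower and 1 of 9 at 0 in both; their part in these values was not tested. With 6 sham cells the values of that library rest on very few counts.

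Mast and basophil cells, 20 in distraction and 18 in sham, had Slfn4 at 600 CPM (119 counts) in distraction and 605 CPM (87 counts) in sham, and 0 Ifit3 counts in both libraries. A Slfn4 UMI was found in 85.0% of the distraction and 88.9% of the sham cells, and 1 cell held 21.8% and 18.4% of the counts.

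Oasl, an interferon-induced relative of the oligoadenylate synthetases and one of the genes nearest to the mean member profile, was at 3157 CPM in distraction and 3688 CPM in sham macrophages. In mature neutrophils it had 809 and 734 CPM, and in Vcan Fn1 monocytes 233 and 302 CPM.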
